A study of Homo sapiens with 12 samples.

Results

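Histone acetyltransferases transfer the acetyl group of acetyl-CoA to lysines of histone tails, and acetylated chromatin is in general open to transcription. The enzymes described here were chosen by gene symbol as EP300, CREBBP, KAT2A, KAT2B, KAT5, KAT6A, KAT6B, KAT7, KAT8 and HAT1. All 10 were found in both deposited tables, among 29657 genes for SCC15 and 31055 genes for SCC25, and all 10 passed the filter on low values. EP300 encodes p300, which the study named among the binding partners of EZH2. From the same RNA-seq the study reported significantly lower EP300 mRNA with squamocin, and by Western blot less p300 protein in both lines. The EP300 transcript is described here library by library.

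SCC15 and SCC25 are established cell lines of oral squamous cell carcinoma, labelled as wild type. Cells of each line received ACGs (annonaceous acetogenins, plant polyketides) or the solvent DMSO for 24 h, with 3 libraries in each of the 4 groups and 12 in all. The study's methods name the compound as squamocin at 10 µg/mL. Nothing in the labels says whether replicates were separate cultures, so p-values measure only the spread between these libraries. The lines come from different tumours, so a difference between them has no single named factor.

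The enzymes fall into 4 families. p300 and CBP (CREBBP) are large paralogous coactivators that acetylate histone H3 at enhancers and bind many transcription factors. KAT2A (GCN5) and KAT2B (PCAF) are the exchangeable catalytic subunits of the SAGA and ATAC complexes. KAT5 (TIP60), KAT6A (MOZ), KAT6B (MORF), KAT7 (HBO1) and KAT8 (MOF) form the MYST family and work with scaffold proteins, some of them shared. HAT1 acetylates newly made histone H4 before it is placed on DNA.

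In both lines EP300 and CREBBP fell and KAT2A rose with ACGs, while 5 of the 10 enzymes changed by different amounts in the 2 lines, close to the 52.2% of all genes that did so. EP300 dropped to 42.9% of its DMSO level in SCC15 and to 47.0% in SCC25, taken from mean log2 values. KAT5 and KAT8 rose in SCC15 and fell in SCC25. KAT7 rose in SCC25, and KAT6A and KAT2B fell in SCC15.

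Stretches before a RefSeq transcript start of EP300, CREBBP and KAT2A are shown because these are the 3 genes that moved the same way in both lines. That of KAT5 is shown because it moved in opposite ways. They are RefSeq windows of 250 bases before the transcript start in GRCh38.p14, written 5′ to 3′ on the strand of the gene. The gene spans given below come from another annotation. By those spans the EP300 and KAT5 windows lie inside the gene, and the CREBBP window overlaps its start. Capitals mark matches, on either strand, to CACGTG (E-box), CCGGAAGT (ETS), TGACGTCA (cAMP response element), GGGCGG (GC box) or CCAAT, with overlapping matches counted.
EP300, chr22:41092342-41092591, plus strand: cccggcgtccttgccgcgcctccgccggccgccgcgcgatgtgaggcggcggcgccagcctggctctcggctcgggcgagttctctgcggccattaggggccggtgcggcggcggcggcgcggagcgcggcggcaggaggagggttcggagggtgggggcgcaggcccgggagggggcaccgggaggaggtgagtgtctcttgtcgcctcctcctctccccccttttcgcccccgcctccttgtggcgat
CREBBP, chr16:3880714-3880963, minus strand: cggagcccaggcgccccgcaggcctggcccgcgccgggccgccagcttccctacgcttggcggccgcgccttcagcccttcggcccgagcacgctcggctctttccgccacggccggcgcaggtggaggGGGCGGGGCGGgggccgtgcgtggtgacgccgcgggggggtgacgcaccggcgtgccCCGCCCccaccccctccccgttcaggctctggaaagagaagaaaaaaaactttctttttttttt
KAT2A, chr17:42121368-42121617, minus strand: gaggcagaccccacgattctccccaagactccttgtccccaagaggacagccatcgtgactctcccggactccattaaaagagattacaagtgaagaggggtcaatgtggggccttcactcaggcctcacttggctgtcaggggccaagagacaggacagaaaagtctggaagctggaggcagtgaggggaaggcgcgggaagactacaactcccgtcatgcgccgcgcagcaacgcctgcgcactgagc
KAT5, chr11:65712002-65712251, plus strand: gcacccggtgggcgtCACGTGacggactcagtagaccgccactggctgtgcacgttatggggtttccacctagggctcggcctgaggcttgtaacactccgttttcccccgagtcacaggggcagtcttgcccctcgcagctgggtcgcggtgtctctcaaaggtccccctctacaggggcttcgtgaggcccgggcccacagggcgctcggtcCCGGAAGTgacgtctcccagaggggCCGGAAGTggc
The EP300 window held none of the 5 motifs and had 76.8% G or C with 35 CpG pairs, against a median of 58% and 11 pairs over all 35116 windows. The KAT2A window, with 58.8% G or C and 11 CpG pairs, also held none of them. CREBBP had 3 GC boxes in the window shown, a motif present in 42.6% of all windows. KAT5 had 1 E-box (6.34% of all windows) and 2 ETS matches (3.42%), and no window of an enzyme held the cAMP response element (1.65%). The CCAAT motif (32.0% of all windows) was in 2 of the 11 windows that 8 of the 10 enzymes had. These matches are a description of the windows only.

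Every value below is a normalized count, the reads assigned to a gene divided by the size factor that the authors set for that library within its table. Reads assigned to genes ranged from 16665563 to 22748845 per library, and the enzymes' own reads from 51 (KAT2B in SCC25 with ACGs) to 3947 (EP300 in SCC15 with DMSO). A gene was called changed when its Benjamini-Hochberg adjusted p, from limma over all genes tested in the table, was under 0.05. The log2 fold changes compare ACGs with DMSO on log2(normalized count + 1) and are given with their standard errors. The third ACGs library of SCC15 stood apart, with a chi-square per degree of freedom of 71.6 and 63.6 against the other 2 libraries of its group and 1.72 to 11.02 for every other pair of replicates. In that library protein-coding genes with up to 3397 exonic bases lay 0.48 above the mean of the other 2 ACGs libraries. Those with 8112 or more lay 0.18 below it (medians, log2). The SCC15 fold changes of the enzymes are therefore also given without the third ACGs library. Normalized counts of 8 squamous markers summed to 113057 to 119309 with DMSO and 208839 to 362930 with ACGs in SCC15. In SCC25 they summed to 29847 to 30081 and 54489 to 57273. KRT17 had the highest mean, and in SCC15 it made up most of the sum, at 112298 with DMSO and 260258 with ACGs. There 7 of the 8 markers had a mean of at least 10 with DMSO and 6 with ACGs. Fibroblast markers summed to 576 to 631 with DMSO and 377 to 414 with ACGs in SCC15, and to 760 to 804 and 1065 to 1213 in SCC25. Endothelial markers summed to 158 to 178 and 66.1 to 77.1 in SCC15, and to 231 to 294 and 19.8 to 36.6 in SCC25, and leukocyte markers to at most 34.2 in all libraries. The part of these shifts in the results was not tested. In bulk RNA a lower count can come from fewer cells that express a gene or from less of its RNA per cell, and these cannot be told apart.

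EP300 (ENSG00000100393, chr22:41091786-41180079, plus strand) was the enzyme with the lowest fold change in both lines. In SCC15 its normalized counts were 3324, 3121 and 3198 with DMSO and 1793, 1783 and 816 with ACGs. Every ACGs library lay below every DMSO library, and the third ACGs library was far below the other two. The group means were 3214 ± 102 (SD, n = 3) and 1464 ± 561 (SD, n = 3), a log2 fold change of -1.22 ± 0.29 with adjusted p = 0.00779 from limma. Without the third ACGs library the change was -0.85. In SCC25 the counts were 2931, 2886 and 2787 with DMSO and 1420, 1349 and 1276 with ACGs, tight in both groups and without overlap. The SCC25 change was -1.09 ± 0.05 with adjusted p = 8.61e-10 from limma. EP300 passed the threshold in all 17 alternative analyses of SCC15, with log2 values between -1.72 and -0.85, and in all 17 of SCC25, between -1.30 and -0.98. An exact permutation test of 3 against 3 libraries gave its smallest possible two-sided p of 0.1 in each line.

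CREBBP (ENSG00000005339, chr16:3725054-3880726, minus strand), the paralogue of EP300, fell less. Its counts in SCC15 were 1504, 1497 and 1389 with DMSO and 1079, 980 and 541 with ACGs, again with the third ACGs library lowest and no overlap. The log2 fold change was -0.82 ± 0.24 (adjusted p = 0.0206, limma). It was -0.51 without that library, and the call was lost when any 1 of the 3 DMSO libraries was left out, with adjusted p up to 0.0653 over all alternatives. SCC25 gave 2144, 2138 and 2078 with DMSO and 1676, 1631 and 1754 with ACGs, a log2 fold change of -0.33 ± 0.05 with adjusted p = 2.84e-05 from limma. The groups did not overlap, and the call held in all 17 alternatives.

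**Figure D1:**
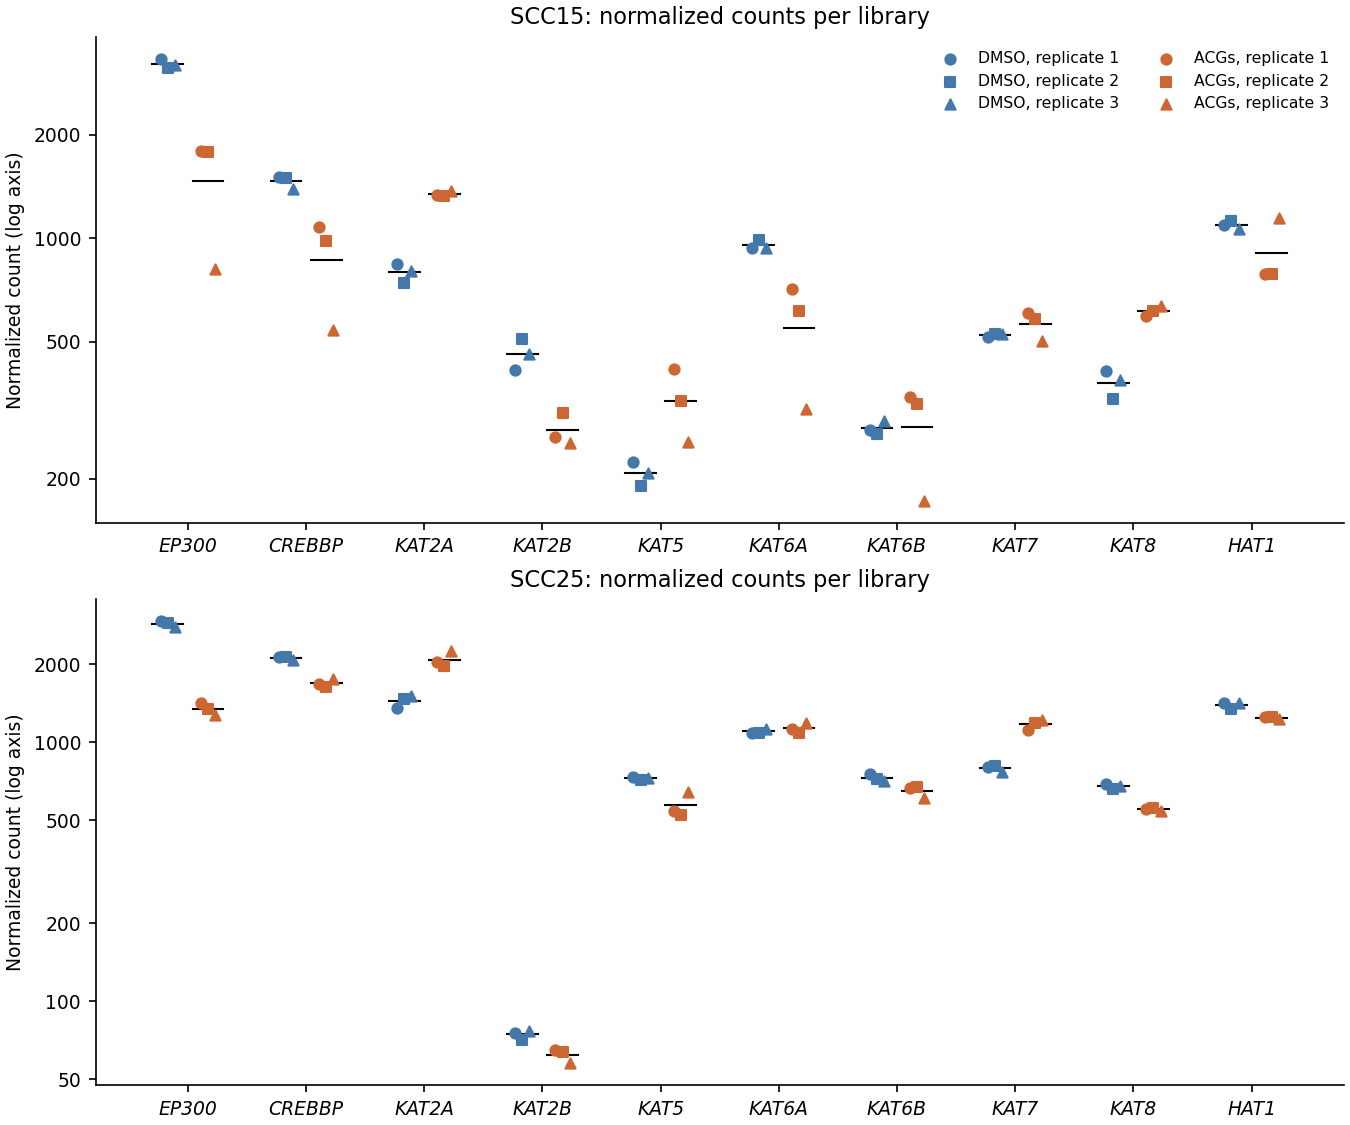
Normalized counts of the 10 enzymes in each library (log axis), SCC15 above and SCC25 below, with DMSO in blue, ACGs in orange, replicates by marker shape and group means as black lines. EP300 is lower in all ACGs libraries of both lines. The third ACGs library of SCC15 (orange triangles) is the lowest of that line for EP300, CREBBP, KAT2B, KAT6A, KAT6B and KAT7.

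The ratio of EP300 to CREBBP reads within a library does not depend on how libraries are scaled. In SCC15 it was 2.21, 2.08 and 2.30 with DMSO and 1.66, 1.82 and 1.51 with ACGs. The third ACGs library, which pulled both genes down, differed from the other two far less in this ratio. In SCC25 the ratio was 1.37, 1.35 and 1.34 with DMSO and 0.847, 0.827 and 0.727 with ACGs. EP300 reads thus outnumbered CREBBP reads in all DMSO libraries, and in SCC25 they were fewer in all ACGs libraries. These are reads without regard to transcript length. Divided by transcript length and library depth, EP300 (7.63, 7.22 and 6.95) overlapped CREBBP (7.34, 7.11 and 7.77) in the SCC25 ACGs libraries. The log2 change of the ratio was -0.41 in SCC15 and -0.76 in SCC25, with no overlap of groups in either line (exact permutation p = 0.1, the smallest that 3 against 3 allows).

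KAT2A (ENSG00000108773, chr17:42113108-42121358, minus strand) moved the other way. The SCC15 counts were 844, 742 and 803 with DMSO and 1337, 1323 and 1370 with ACGs, and here the third ACGs library lay with its group. The log2 fold change was 0.76 ± 0.08 with adjusted p = 0.000288 from limma, and 0.74 without that library. In SCC25 the counts were 1356, 1464 and 1503 with DMSO and 2035, 1969 and 2244 with ACGs, a change of 0.53 ± 0.06 (adjusted p = 3.73e-06, limma). Scaling every library to an equal total of reads lowered the SCC15 value to 0.26, past the threshold no longer, and the SCC25 value to 0.32, still past it.

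KAT2B (ENSG00000114166, chr3:20040023-20154404, plus strand), which takes the same place as KAT2A in SAGA and ATAC, did not rise in either line. In SCC15 it fell from 414, 511 and 463 to 265, 311 and 254, a log2 fold change of -0.74 ± 0.13 with adjusted p = 0.00182 from limma, and -0.68 without the third ACGs library. Its counts in SCC25 were much lower, at 75.8, 71.1 and 77.0 with DMSO and 64.8, 63.4 and 57.7 with ACGs. The groups did not overlap there, but the change of -0.26 ± 0.16 did not pass the threshold (adjusted p = 0.138, limma). Reads of KAT2A against KAT2B went from a ratio of 1.74 ± 0.29 (SD, n = 3) with DMSO to 4.89 ± 0.58 (SD, n = 3) with ACGs in SCC15. In SCC25 that ratio was 19.3 ± 1.36 with DMSO and 33.8 ± 4.42 with ACGs, and neither line showed overlap between its groups.

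**Figure D2:**
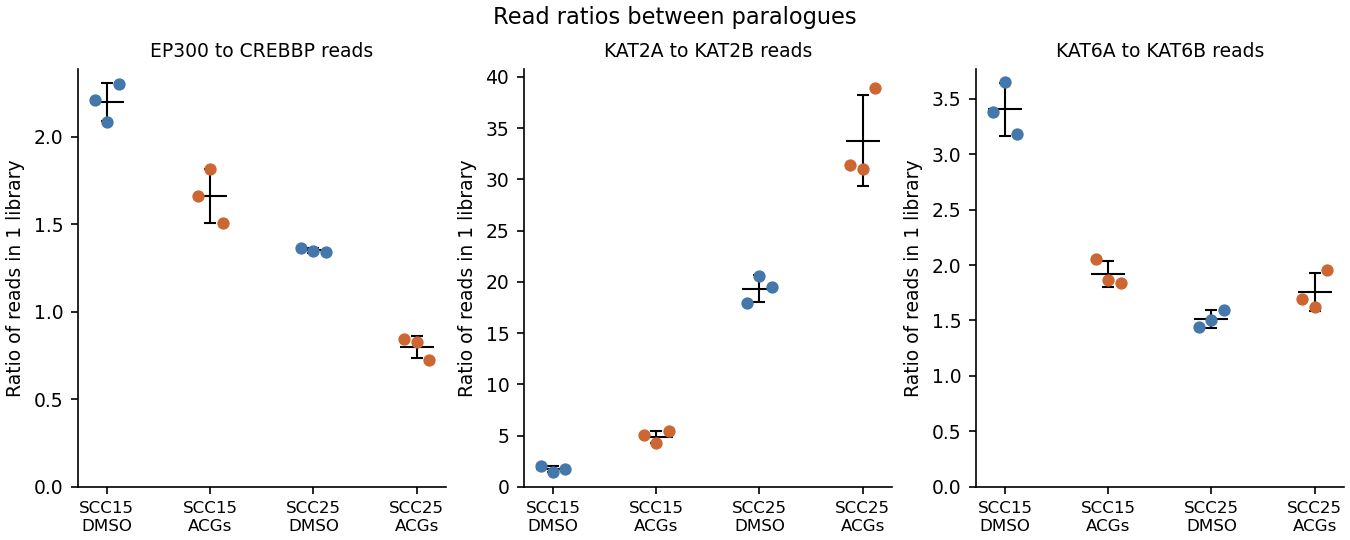
Ratio of reads between 2 paralogues within each library (vertical axis from 0, no unit), with DMSO in blue and ACGs in orange, points for libraries, and bars for the mean ± SD of 3 libraries. EP300 to CREBBP is lower and KAT2A to KAT2B is higher with ACGs in both lines, and KAT6A to KAT6B is lower in SCC15 and higher in SCC25.

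Among the MYST enzymes, KAT8 (ENSG00000103510, chr16:31115754-31131393, plus strand), which acetylates histone H4, gave the clearest opposite changes. SCC15 counts were 413, 342 and 388 with DMSO and 595, 614 and 635 with ACGs, a log2 fold change of 0.69 ± 0.10 (adjusted p = 0.000952, limma) and 0.67 without the third ACGs library. SCC25 counts were 691, 661 and 678 with DMSO and 553, 555 and 544 with ACGs, a change of -0.30 ± 0.06 (adjusted p = 0.000539, limma). The groups were apart in both lines. The SCC15 value was 0.20 and no longer called with equal library totals, while the SCC25 value became -0.50.

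KAT5 (ENSG00000172977, chr11:65711996-65719604, plus strand), the catalytic subunit of NuA4 that also acts in DNA repair, showed the same pair of directions. In SCC15 the counts were 224, 191 and 209 with DMSO and 418, 337 and 256 with ACGs, with wide spread among the treated libraries but no overlap. The log2 fold change was 0.67 ± 0.18 (adjusted p = 0.0144, limma), or 0.86 without the third ACGs library, and the call was lost in 3 of 17 alternatives: equal library totals, a correction for gene span, and without the DMSO library 2. In SCC25 the counts were 734, 718 and 730 with DMSO and 543, 526 and 645 with ACGs, a change of -0.35 ± 0.08 (adjusted p = 0.00111, limma) that held in all 17 alternatives. Exons of KAT5 share 1439 bases with RNASEH2C on the other strand, whose mean counts went from 588 to 811 in SCC15 and from 1630 to 1719 in SCC25. Whether reads were counted by strand is not given in the sources used here, so the KAT5 values are uncertain.

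KAT7 (ENSG00000136504, chr17:49788555-49835030, plus strand) acetylates histone H3 and has a part in licensing of replication origins. In SCC25 its counts went from 804, 807 and 771 to 1115, 1185 and 1218, a log2 fold change of 0.56 ± 0.06 (adjusted p = 1.14e-06, limma) that passed in all 17 alternatives. In SCC15 the counts were 517, 527 and 526 with DMSO and 609, 584 and 503 with ACGs. The groups overlapped because of the third ACGs library, and the change of 0.11 ± 0.10 did not pass (adjusted p = 0.387, limma). The SCC15 value was 0.19 and called without that library, 0.43 and called after a correction for exonic length, and -0.39 and called lower with equal library totals, so no direction is given for it.

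KAT6A and KAT6B share the scaffold protein BRPF1 and acetylate histone H3. KAT6A (ENSG00000083168) had counts of 937, 988 and 935 with DMSO and 711, 617 and 319 with ACGs in SCC15, apart in all libraries. Its log2 fold change was -0.88 ± 0.27 (adjusted p = 0.0252, limma), or -0.53 without the third ACGs library. The call was lost when any 1 of the 3 DMSO libraries was left out, with adjusted p up to 0.0758 over all alternatives. In SCC25 KAT6A had overlapping groups, 1087, 1089 and 1129 with DMSO and 1129, 1091 and 1189 with ACGs, and a change of 0.04 ± 0.05 that did not pass (adjusted p = 0.469, limma).

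KAT6B (ENSG00000156650, chr10:74824927-75032624, plus strand) gave values that depended on single libraries. Its SCC15 counts were 277, 270 and 294 with DMSO and 345, 331 and 173 with ACGs, where 2 treated libraries lay above all controls and the third below them. The log2 value was -0.05 ± 0.25 with all libraries (adjusted p = 0.87, limma) and 0.27, past the threshold, without the third. In SCC25 KAT6B went from 756, 724 and 708 to 667, 672 and 608, a change of -0.17 ± 0.06 (adjusted p = 0.028, limma) that was lost in 6 of 17 alternatives. The KAT6A to KAT6B ratio of reads was 3.40 ± 0.24 (SD, n = 3) with DMSO and 1.92 ± 0.12 (SD, n = 3) with ACGs in SCC15, with 2.06, 1.87 and 1.84 in the treated libraries. In SCC25 it was 1.51 ± 0.08 with DMSO and 1.76 ± 0.17 with ACGs, higher in all treated libraries.

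HAT1 (ENSG00000128708, chr2:171922448-171983682, plus strand) had counts of 1091, 1124 and 1064 with DMSO in SCC15 and 789, 789 and 1147 with ACGs. The third ACGs library lay above all controls and the other two below them, and the change of -0.29 ± 0.15 did not pass the threshold (adjusted p = 0.133, limma). Without that library it was -0.47 and called. In SCC25 the counts went from 1420, 1341 and 1417 to 1252, 1248 and 1228, a log2 fold change of -0.16 ± 0.05 (adjusted p = 0.00801, limma). That small change passed in 16 of 17 alternatives and not after the correction for exonic length.

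**Figure D3:**
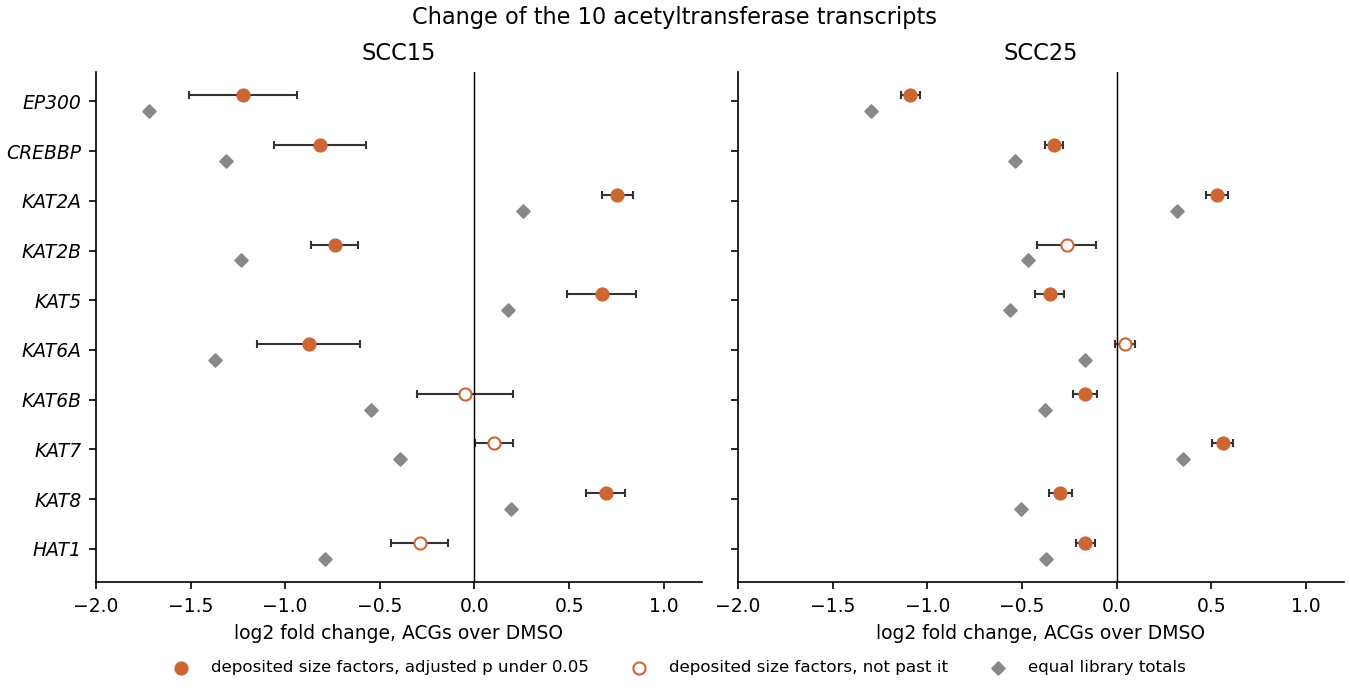
Log2 fold change of ACGs over DMSO (horizontal axis) for each enzyme in SCC15 and SCC25, as circles with bars of 1 standard error, filled where the adjusted p was under 0.05, and as grey diamonds for libraries scaled to equal totals of reads. EP300 is at -1.22 and -1.09, KAT8 at 0.69 and -0.30, and the diamonds lie to the left of the circles for all enzymes.

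Of the 10 enzymes in SCC15, 3 rose and 4 fell, against a background of 30.9% of all 15902 genes tested that rose and 30.0% that fell. In SCC25, 2 rose and 6 fell, against 38.3% and 38.5% of 16539 genes. Counts of enzymes this close to the background are no result about the family as a whole, and what follows rests on the single genes. The median log2 fold change of the enzymes was -0.17 in SCC15 and -0.22 in SCC25, against 0.01 and -0.01 for all genes. KAT2A alone rose in both lines (background 22.1% of 14454 genes tested in both), and EP300 and CREBBP fell in both (18.6%).

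The split depended on the scaling. With equal library totals, which moved the median of all genes to -0.48 in SCC15 and -0.22 in SCC25, 0 enzymes rose and 6 fell in SCC15 by limma (background 14.8% and 50.5%). There 1 enzyme was higher at an unadjusted p under 0.05, and edgeR and DESeq2, run with the deposited size factors, each called 3 higher. On that scale 2 rose and 8 fell in SCC25 (background 30.4% and 47.4%). EP300 was still 1.24 below the all-gene median in SCC15 and 1.08 below it in SCC25. Without the third ACGs library of SCC15, 5 enzymes rose and 5 fell there, against backgrounds of 38.0% and 37.6%. When any 1 of the SCC15 DMSO libraries was left out, 2 enzymes fell, EP300 and KAT2B, and 2 or 3 rose. The backgrounds were then 25.1% that rose and 23.0% that fell without DMSO replicate 1, 25.1% and 22.9% without replicate 2, and 24.8% and 22.8% without replicate 3.

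The 2 tables were normalized separately, so levels were not tested between lines, but the change with ACGs in SCC25 minus that in SCC15 was tested for each enzyme. It passed for 5 of the 10, near the background of 52.2% of 14454 genes. KAT8 differed by -0.99 ± 0.11 (adjusted p = 1.36e-05, limma) and KAT5 by -1.03 ± 0.21 (adjusted p = 0.00118). KAT6A differed by 0.92 ± 0.30 (adjusted p = 0.0195), KAT2B by 0.47 ± 0.17 (adjusted p = 0.0329) and KAT7 by 0.46 ± 0.11 (adjusted p = 0.00438), from the same limma fit. EP300 differed by 0.13 ± 0.31 and did not pass (adjusted p = 0.744, limma). Without the third ACGs library of SCC15 the EP300 difference was -0.24 and did pass, so its larger fall in SCC15 rests on that library. CREBBP (0.49 ± 0.26), KAT2A (-0.23 ± 0.11), KAT6B (-0.12 ± 0.28) and HAT1 (0.13 ± 0.17) did not pass, and all of them did without that library, at 0.18, -0.21, -0.44 and 0.31. Genes past the threshold also became more common in general without that library, with 9547 of 14496 tested. With all libraries they were 7540 of 14454, so these gains are no result about the enzymes.

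Levels of the enzymes were set against each other as RPKM, the reads of a gene over the length of its MANE Select transcript (GENCODE release 44) and over the depth of the library. On the RPKM scale HAT1 had the highest level in every group, 43.1 ± 1.09 in SCC15 and 46.6 ± 1.47 in SCC25 with DMSO. EP300 was at rank 2 in SCC15 with DMSO at 23.6 ± 0.76, above KAT2A at 16.5 ± 1.07, and those groups of libraries did not overlap. KAT2A and KAT8 (16.4 ± 1.56) overlapped and had no clear order. With ACGs in SCC15, EP300 was at rank 4 with 7.84 ± 3.52 and overlapped KAT5 at 7.54 ± 2.42. In SCC25, EP300 was at rank 5 with DMSO, at 17.9 ± 0.42, and at rank 6 with ACGs, at 7.27 ± 0.35, where it overlapped CREBBP at 7.40 ± 0.34. The lowest level was that of KAT6B in SCC15, 2.18 ± 0.10 with DMSO, and of KAT2B in SCC25, 0.93 ± 0.04 with DMSO (all SD, n = 3).

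The genes most like EP300 across the 12 libraries, after the mean of each line was taken off, were RERE, YLPM1, ZNF445, ANKRD17 and ZKSCAN1, with Pearson r of 0.996, 0.995, 0.992, 0.992 and 0.991 among 9697 protein-coding genes. The log2 fold changes of RERE, which encodes a nuclear corepressor, were -0.76 in SCC15 and -0.74 in SCC25. All points share the 2 treatments and the third ACGs library of SCC15, so these values describe likeness only. Of the 8 other enzymes compared, which leaves out KAT2B for its low counts in SCC25, CREBBP had the highest r with EP300, 0.93 at rank 395, and KAT2A the lowest, -0.90.

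The partners of the enzymes were followed in lists of complex subunits, whose counts are to be read against all genes tested, of which 30.9% rose and 30.0% fell in SCC15 and 38.3% rose and 38.5% fell in SCC25. With equal library totals these shares were 14.8% and 50.5% in SCC15 and 30.4% and 47.4% in SCC25. Of the SAGA and ATAC subunits, 6 of 18 tested rose and 3 fell in SCC15, and 8 of 17 rose and 7 fell in SCC25, with medians of 0.05 and 0.16. With equal library totals 3 rose and 8 fell in SCC15, and 8 rose and 7 fell in SCC25. KAT14, itself an acetyltransferase and a subunit of ATAC, fell from 211 ± 10.6 to 33.6 ± 6.78 (SD, n = 3) in SCC15 and from 209 ± 27.5 to 69.3 ± 8.31 in SCC25. Its log2 fold changes were -2.63 ± 0.18 and -1.58 ± 0.14, beyond those of all 10 enzymes above. ENY2, of the deubiquitinating module, rose by 0.99 and 1.44 (log2), and SUPT3H, a core subunit of SAGA, rose by 1.24 and 1.26. ZZZ3 was not analysed here, nor was ATXN7 in SCC25.

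Among 15 NuA4 subunits, 4 rose and 1 fell in SCC15, and 7 rose and 5 fell in SCC25. MRGBP (0.86 and 0.89, log2 in SCC15 and SCC25) and MORF4L1 (0.58 and 0.93) rose in both lines, and MBTD1 fell in both (-0.67 and -0.83). With equal library totals 1 NuA4 subunit rose and 6 fell in SCC15, and 3 rose and 7 fell in SCC25, and MORF4L1 in SCC15 (0.08) was no longer called. Without the third ACGs library of SCC15, 6 NuA4 subunits rose and 4 fell there, against 38.0% and 37.6% of all genes. Of 9 scaffold and reader subunits of the KAT6A, KAT6B and KAT7 complexes, 2 rose and 3 fell in SCC15, and 4 rose and 3 fell in SCC25, or 1 and 6 in SCC15 and 2 and 5 in SCC25 with equal library totals. MEAF6, which is in all of these complexes, rose by 0.76 and 1.69. ING4 rose in SCC15 (0.69) and fell in SCC25 (-1.37), and JADE1 went from 580 to 311 in SCC15 (-0.91) and from 605 to 749 in SCC25 (0.30). On the scale of equal totals ING4 in SCC15 (0.19) and JADE1 in SCC25 (0.09) were no longer called. Both of these differed between the lines (ING4 by -2.05, adjusted p = 1.66e-06, and JADE1 by 1.21, adjusted p = 2.30e-05, limma).

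Of the 10 MSL and NSL subunits that carry KAT8, 3 rose and 2 fell in SCC15, and 4 rose and 3 fell in SCC25. The SCC15 split was 5 and 3 without the third ACGs library, where 38.0% of all genes rose and 37.6% fell. It was 2 and 6 with equal library totals, where SCC25 had 3 and 5. MSL1, the scaffold of MSL, rose by 0.85 and 0.55, and KANSL1 (-0.68 and -0.31) and PHF20 (-0.54 and -0.27), both of NSL, fell in both lines. In SCC15 KANSL1 was at -0.44 without the third ACGs library, its call was lost without any 1 of the DMSO libraries, and the calls of both genes were lost with the gene span correction. Of 4 tested proteins that bind p300 and CBP or work with HAT1, CITED4, which binds the CH1 domain of p300 and CBP, rose from 77.5 ± 13.6 to 439 ± 140 in SCC15 and from 187 ± 10.4 to 952 ± 39.0 in SCC25 (SD, n = 3). Its log2 fold changes were 2.46 ± 0.24 and 2.34 ± 0.07. CITED2, its relative, rose by 0.71 in SCC25 and was at -0.17 in SCC15 (adjusted p = 0.261, limma). The SCC15 value of CITED2 was called lower in 4 of 17 alternatives, at -0.29 without the third ACGs library and -0.67 with equal library totals. RBBP4, a histone chaperone of the same family as the HAT1 partner RBBP7, was at -0.36 and -0.75, called in both lines, and lost its SCC15 call in 4 of 17 alternatives, among them those without ACGs replicate 2, DMSO replicate 2 and DMSO replicate 3.

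Of 9 other proteins given acetyltransferase activity, 0 rose and 6 fell in SCC15 by limma, and 2 rose and 6 fell in SCC25. The medians were -0.69 and -0.37. Of all genes tested, 30.9% rose and 30.0% fell in SCC15, and 38.3% and 38.5% in SCC25. In SCC15, 0 were higher at an unadjusted p under 0.05, and edgeR and DESeq2 also called 0 higher. GTF3C4, of the RNA polymerase III factor TFIIIC, fell (-1.18 and -0.55), and NAA40, which acetylates the first residue of histones H2A and H4, fell (-0.85 and -1.02). NAA60 changed by -0.39 and -0.41, and its SCC15 call was lost with the exonic length correction.

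**Figure D4:**
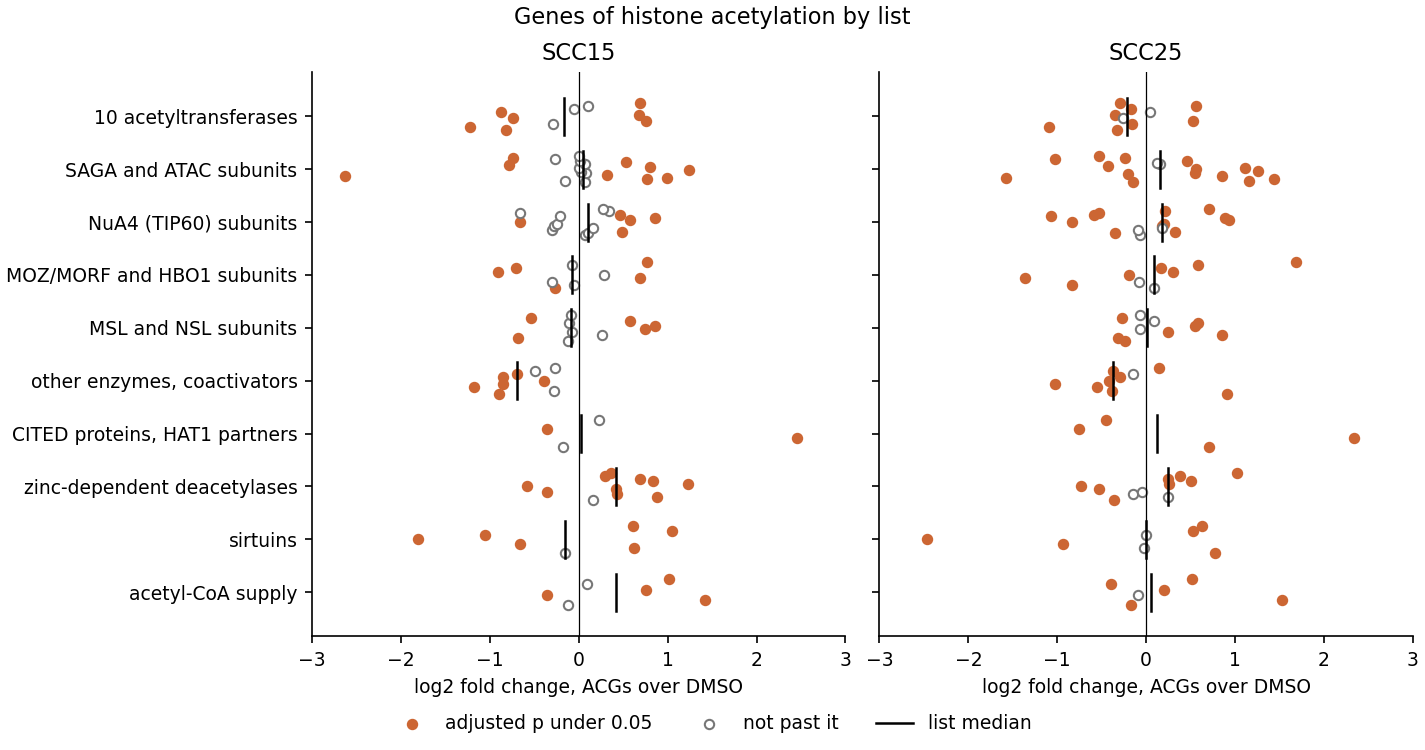
Log2 fold change of ACGs over DMSO (horizontal axis) of each tested gene in the lists named at the left, SCC15 left and SCC25 right, filled where the adjusted p was under 0.05, with the list median as a black line. CITED4 (2.46 and 2.34) is farthest to the right in both lines. KAT14 (-2.63) is farthest to the left in SCC15 and SIRT4 (-2.46, at low counts) in SCC25. The median of the other enzymes and coactivators is -0.69 in SCC15 and -0.37 in SCC25.

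The enzymes that remove acetyl groups were compared in the same way. Of all genes tested, 30.9% rose and 30.0% fell in SCC15, and 38.3% and 38.5% in SCC25. Of 11 zinc-dependent deacetylases, 8 rose and 2 fell in SCC15, and 5 rose and 3 fell in SCC25, with medians of 0.42 and 0.24. HDAC6, the mainly cytoplasmic tubulin deacetylase, rose by 0.83 and 0.50, HDAC9 rose by 0.36 and 1.02, and HDAC4 fell (-0.58 and -0.74). HDAC9 in SCC15 was called in 8 of 17 alternatives and was at -0.13 with equal library totals, and HDAC6 in SCC15 (0.33) was no longer called on that scale. HDAC4 lost its SCC15 call with the gene span correction. The split of the list turned with equal library totals, to 1 that rose and 3 that fell in SCC15, and 2 that rose and 5 that fell in SCC25. On that scale 14.8% of all genes rose and 50.5% fell in SCC15, and 30.4% and 47.4% in SCC25. Of 7 sirtuins, 3 rose and 3 fell in SCC15, and 3 rose and 2 fell in SCC25. With equal library totals 1 sirtuin rose and 4 fell in SCC15, and 3 rose and 4 fell in SCC25. The mitochondrial SIRT3 (-0.66 and -0.93) and SIRT4 (-1.81 and -2.46) fell in both lines, and the nucleolar SIRT7 (0.61 and 0.63) rose in both, though in SCC15 it was at 0.12 and not called with equal library totals. SIRT4 had low counts, from 55.0 ± 9.33 to 16.8 ± 11.3 in SCC15 and from 43.4 ± 7.70 to 7.90 ± 5.31 in SCC25 (SD, n = 3).

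Readers of acetylated histones and the supply of acetyl-CoA closed the list. BRD2, a reader of the BET family, rose by 0.76 and 0.68, and BRD3, of the same family, fell (-0.47 and -1.06). In SCC15 BRD2 was at 0.26 and not called with equal library totals. BRD3 in SCC15 was at -0.30 without the third ACGs library, and its call was lost without any 1 of the DMSO libraries and with the exonic length correction. Of 6 genes of acetyl-CoA supply, 3 rose and 1 fell in SCC15, and 3 rose and 2 fell in SCC25. The shares of all genes were 30.9% and 30.0% in SCC15, and 38.3% and 38.5% in SCC25. With equal library totals 3 of the 6 rose and 3 fell in SCC15, and 2 rose and 3 fell in SCC25. On that scale the shares were 14.8% and 50.5% in SCC15, and 30.4% and 47.4% in SCC25. ACSS2, which makes acetyl-CoA from acetate, rose from 1189 ± 21.1 to 3177 ± 212 in SCC15 and from 1567 ± 60.8 to 4538 ± 564 in SCC25 (SD, n = 3), log2 fold changes of 1.42 and 1.53. SLC25A1, the mitochondrial citrate carrier, rose by 1.02 and 0.51, and PDHA1, of the pyruvate dehydrogenase complex, by 0.75 and 0.20. These 3 rose in both lines, with PDHA1 at -0.01 in SCC25 under equal library totals.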

How the data were processed

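RNA-seq libraries of SCC15 and SCC25 cells with ACGs or DMSO (3 per group, 12 in all) were read from the deposited tables, 1 per line, and grouped by the labels. Per the submitters' processing notes and the study's methods, the authors mapped reads with HISAT2 (2.0.5) to GRCh38, counted them per gene with featureCounts (1.5.0-p3) and divided each library by a DESeq2 size factor. The deposited values are therefore a normalized signal and not FPKM, although the SCC25 column headers say so. All values were whole multiples of 1 step per library (100% within 0.1 of a whole number), so read counts were recovered. The authors' columns of fold changes, p-values and group means were not used.

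Genes with a mean of at least 10 were tested with limma (3.58.1, R 4.3.3) on log2(value + 1), with mean-dependent variance and Benjamini-Hochberg adjustment over 15902 genes in SCC15, 16539 in SCC25 and 14454 for the difference between lines. edgeR (4.0.16) and DESeq2 (1.42.0) on recovered reads, other scalings, filters, pseudocounts and length corrections, and leaving out each library were alternatives. The correction for exonic length was added after the data were seen. On simulated data limma recovered 100% of genes changed by 1 (log2) in SCC15, with 15764 genes. For the difference between lines it recovered 95.9%. The simulation used the same dispersion for all genes, changed only genes with means of at least 100, and had no library that stood apart. It therefore does not measure the power in the real SCC15 libraries.

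The enzymes and gene lists were chosen with earlier results of these data known. All 10 enzymes are named, with at most 3 genes of each other list (called alike in both lines with the largest smaller change, then by the largest change) and the 5 genes most like EP300. Some genes of the lists are not reported here. Lengths came from GENCODE release 44, whose spans overlapped the deposited ones for 99.9% of shared identifiers, and upstream sequences from RefSeq.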

Additional observations from a re-analysis of the deposited data

Results flagged for a closer look

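The change with ACGs differed between the cell lines for 5 of the 10 enzymes by limma's test of the difference, each given as SCC25 minus SCC15 on the log2 scale. Over all 14454 genes tested in both lines that share was 52.2%. KAT8 differed by -0.99, with all 3 treated libraries above the controls in SCC15 and all 3 below them in SCC25. It passed in all 23 alternatives, with adjusted p between 1.84e-15 and 0.000338. KAT5 differed by -1.03, with the same arrangement of libraries, and passed in all 23 alternatives. Its exons overlap those of RNASEH2C, whose mean counts were higher with ACGs in both lines, and the part of shared reads in the result was not tested. KAT6A differed by 0.92 and passed in all 23 alternatives, with values from 0.57 (without the third ACGs library of SCC15) to 1.21. KAT7 differed by 0.46 and passed in all 23, from 0.26 to 0.74. KAT2B differed by 0.47 and passed in 12 of 23, and its level in SCC25 rested on 51 to 94 reads per library.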

How the results depend on the processing

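When changes also had to exceed 1 on the log2 scale, 4318 genes were called in SCC15, 5106 in SCC25 and 3112 for the difference between lines, and 1 enzyme, EP300, in each line. EP300 kept its direction and call in both lines under all alternatives. Leaving out 1 library at a time gave EP300 changes of -1.41 to -0.85 in SCC15 and -1.13 to -1.05 in SCC25, and 4 to 10 enzymes called in SCC15 (4 without DMSO replicate 2, 10 without ACGs replicate 3) and 7 or 8 in SCC25. Called genes then numbered 7542 to 12108 in SCC15, 11848 to 13038 in SCC25 and 6806 to 9547 for the difference.

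Some values changed sign. The EP300 difference between lines was -0.078 with the gene span correction, -0.047 with the exonic length correction and -0.24 to 0.32 when a library was left out, below 0 without ACGs replicate 3 of SCC15. With equal library totals the KAT2A difference was 0.064, KAT6A in SCC25 -0.16, KAT7 in SCC15 -0.39 and the KAT6B difference 0.17. KAT6B in SCC15 was 0.015 with edgeR, 0.013 with DESeq2, 0.25 with gene span and 0.33 with exonic length, and -0.23 to 0.27 when a library was left out (0.27 without ACGs replicate 3). The KAT6B difference ran from -0.44 (without ACGs replicate 3 of SCC15) to 0.060 (without replicate 1), and the HAT1 difference was -0.039 with gene span. The cause was not tested. Of all 570 log2 values of the enzymes under alternatives, 513 kept direction and call, 29 lost the call, 13 gained it and 15 changed sign.

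Libraries with the same replicate number showed no shared deviation (correlations from -0.051 to 0.0078), against -0.040 to 0.049 for unlike numbers. With 3 libraries per group these values cannot exclude a pairing by number. A fit with the replicate as a block called 9116 genes in SCC15, 12611 in SCC25 and 7089 for the difference, and 7 and 8 enzymes, and of the enzymes' calls it ended the KAT2B difference (adjusted p = 0.0548, limma).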
